A study of Mus musculus with 6 samples.

Results

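The endothelin system is described here through 6 genes, Edn1, Edn2, Ece1, Ece2, Ednra and Ednrb, out of 25526 genes listed in each library. They were chosen as a family because Edn1 was seen to be higher in every knockout library, so the Edn1 difference is given as a description with no test. RNA-seq was done on MOC2 cells, which derive from a mouse squamous cell carcinoma of the mouth and were grown in medium with serum and no added treatment. There were 3 p62 knockout cultures made with CRISPR-Cas9 and 3 parental cultures with wild-type p62, the autophagy receptor encoded by Sqstm1, and the submitters call both sets biological replicates. Whether the knockout cultures descend from 1 clone, and whether the parental cells were given a control guide, is not stated in the labels. Where 3 values of a group are listed, they are replicates 1, 2 and 3 in that order.

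Endothelins are short peptides best known as vasoconstrictors made by endothelial cells, and many carcinomas also make endothelin 1. The peptide is cut from a longer precursor first by furin-like proteases, which gives big endothelin, and then by endothelin-converting enzymes, which give the active form. It acts through the A and B receptors, which are G protein-coupled and signal through phospholipase C and calcium, and the B receptor also clears the peptide.

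The promoter of Edn1 is shown because Edn1 was the member with the largest fold change of the 3 tested and because levels of its known regulators are given further on. The 250 bases before the RefSeq start (GRCm38.p6, chr13:42301226-42301475, plus strand, written 5′ to 3′) hold the SMAD motif CAGAC on each strand, in capitals, with first bases 47 and 35 bases before the start.
Edn1 upstream: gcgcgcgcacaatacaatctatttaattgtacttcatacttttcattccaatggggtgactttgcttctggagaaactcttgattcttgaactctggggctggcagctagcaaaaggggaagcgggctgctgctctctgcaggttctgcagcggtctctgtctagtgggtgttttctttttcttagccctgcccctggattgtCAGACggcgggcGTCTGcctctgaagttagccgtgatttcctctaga
In the 50 bases after the start, the reverse complement of the GATA motif AGATAA begins at base 9 and the AP-1-like motif TGACTAA at base 37, again in capitals.
Edn1 GATA site: ggtcTTATCTctgg
Edn1 AP-1-like site: tgggTGACTAAtcac
The sites lie at chr13:42301480-42301493 and chr13:42301508-42301522. The hypoxia core ACGTG begins at base 22 on the minus strand, and the AP-1 consensus TGANTCA has no match in this window. Both strands were searched and the matches do not overlap. Of 32851 RefSeq promoter windows of 300 bases, 49.6% hold CAGAC, 19.6% ACGTG, 11.2% AGATAA, 7.81% TGANTCA and 2.35% TGACTAA. A match is a run of letters and no measurement of binding. Positions count from the annotated RefSeq start. Where transcription of Edn1 starts in these cells was not measured, so whether sites after that start are transcribed is not known.

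Libraries held 32821860 to 41763980 exon reads, so that 3 reads, the limit that a count of 0 allows, were worth 0.0718 to 0.0914 CPM, which are reads scaled to 1000000 per library. All other CPM values also carry TMM factors, which adjust for library composition. Sqstm1 stood at 117, 589 and 125 CPM in knockout libraries, or 6.41%, 32.4% and 6.90% of the parental mean, while parental libraries held 1567, 1783 and 2103 CPM. Knockout replicate 2 thus kept more Sqstm1 RNA than the other knockout libraries. Results without it are given for the tested members and, as counts, for the gene lists, but not for each listed gene. Squamous and simple epithelial markers summed to 4636 to 6869 CPM in knockout and 4321 to 4893 CPM in parental libraries, led by the keratins Krt18 and Krt19. Among the 18 epithelial markers, 13 had a mean of at least 1 CPM.

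Edn1 (ENSMUSG00000021367; 5 exons, 2139 exon bases), which encodes the endothelin 1 precursor, was higher in each knockout library than in any parental library. It had 493, 395 and 450 reads in knockout libraries, or 15.1, 9.68 and 13.4 CPM, against 97, 98 and 64 reads, or 2.40, 2.47 and 1.95 CPM, in parental libraries. The group means were 12.7 ± 2.75 CPM in knockout cells and 2.28 ± 0.281 CPM in parental cells (SD, n = 3 each). The groups did not overlap, and the lowest knockout library was 3.92-fold above the highest parental library. The edgeR estimate of the log2 fold change, knockout over parental, was 2.48 ± 0.24 (SE), or 5.57-fold, which ranked 48 of 12775 tested genes by log2 fold change. No p is given, since this contrast chose the gene. In bulk RNA, more cells that make a transcript and more of it per cell cannot be told apart.

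The knockout libraries differed among themselves in Edn1. Replicates 1 and 3 stood at 6.62-fold and 5.87-fold of the parental mean, and replicate 2, which kept the most Sqstm1 RNA, at 4.25-fold. Counting intervals (95%, exact Poisson) were 450 to 539, 357 to 436 and 409 to 494 reads in knockout libraries, and at most 119 reads in parental libraries. These intervals cover counting error only. All Edn1 reads were uniquely assigned in all 6 libraries. Leaving out knockout replicate 2 gave a log2 fold change of 2.62, and leaving out knockout replicate 1 gave 2.35, the highest and lowest of 14 alternatives.

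**Figure D1:**
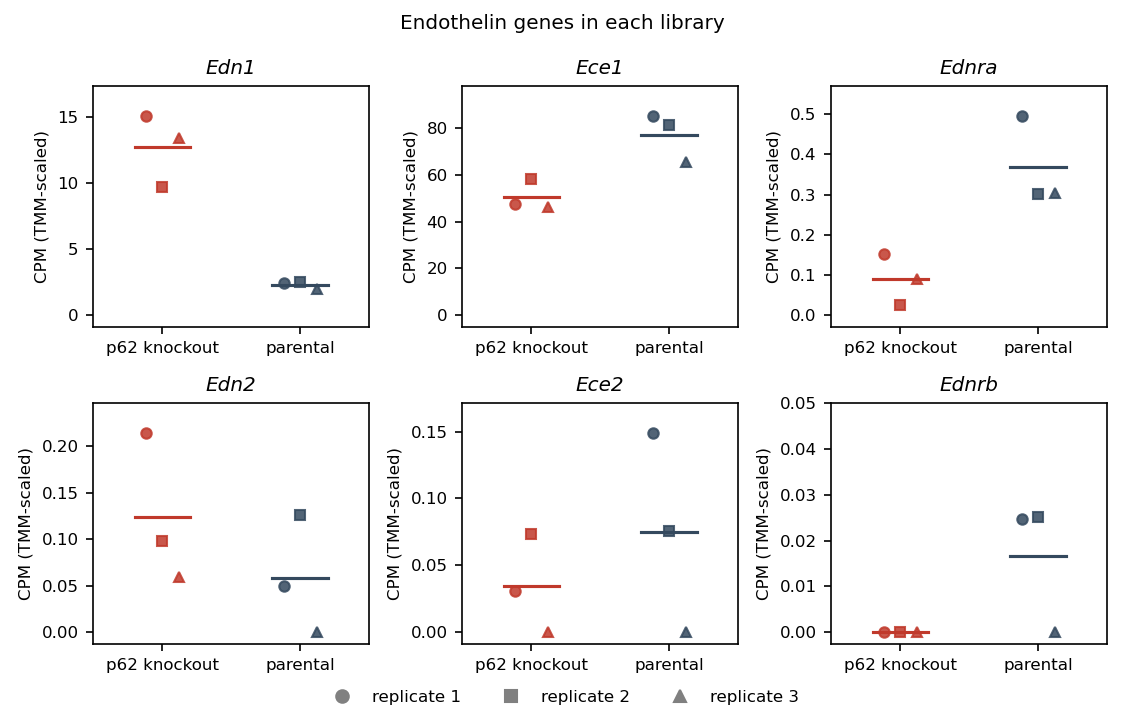
TMM-scaled CPM (y axis, linear, a separate range in each panel) of the 6 endothelin genes in p62 knockout and parental libraries, with 1 point per library, its replicate number by shape and a line at the mean of 3. Edn1 lies at 9.68 to 15.1 CPM in knockout and 1.95 to 2.47 CPM in parental libraries, while Ednra, Edn2, Ece2 and Ednrb stay below 0.5 CPM in all libraries.

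Edn2, which encodes the second endothelin peptide, was close to the detection limit. It had 7, 4 and 2 reads in knockout libraries, against 2, 5 and 0 in parental libraries. The groups overlapped, and Edn2 was not tested because it did not pass the filter on low counts. Edn1 made up 98.0%, 98.5% and 99.4% of the summed TPM of both ligands in knockout libraries, against 97.1%, 93.1% and 100% in parental libraries. TPM are reads per exon base, scaled to the same total in each library, and only on this scale can levels of different genes be compared. Edn3, which encodes the third endothelin and is not among the 6 genes, had 0 reads in all 6 libraries.

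Ece1 (ENSMUSG00000057530), the main converting enzyme, was the most abundant member in every library. It stood at 47.4, 58.0 and 46.2 CPM in knockout libraries, against 85.2, 81.1 and 65.4 CPM in parental libraries. All knockout libraries lay below all parental libraries, with 50.5 ± 6.50 CPM in knockout and 77.2 ± 10.5 CPM in parental cells as means (SD, n = 3 each), but knockout replicate 2 and parental replicate 3 were only 1.13-fold apart. The log2 fold change was -0.61 ± 0.16 (SE), which did not pass (edgeR adjusted p = 0.0589). Without knockout replicate 2 it was -0.74 and passed (edgeR adjusted p = 0.00639), in a fit that called 46.2% of all tested genes. DESeq2 also called Ece1 lower (adjusted p = 0.0154), and it called 22.6% of all tested genes.

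Ece2, the second converting enzyme, had 1, 3 and 0 reads in knockout libraries, against 6, 3 and 0 in parental libraries. Only 1 of 4 reads in knockout and 2 of 9 in parental libraries were uniquely assigned. RefSeq lists Eef1akmt4-Ece2 among the names of this gene, and what share of the other reads belongs to Ece2 is not known. Ece2 was not tested.

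Ednra, the gene of the A receptor, had few reads in all libraries and fewest in the knockout. Counts were 5, 1 and 3 in knockout libraries, or 0.153, 0.0245 and 0.0890 CPM, against 20, 12 and 10 in parental libraries, or 0.496, 0.302 and 0.305 CPM. The groups did not overlap. Ednra passed the filter on low counts only through its parental libraries, and its log2 fold change of -2.07 ± 0.62 (SE) did not pass the test (edgeR adjusted p = 0.0761). Over all alternatives the adjusted p lay between 0.0511 and 0.230.

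Ednrb, the gene of the B receptor, had 0 reads in all 3 knockout libraries, against 1, 1 and 0 reads in parental libraries. Both groups were under 3 reads per library, so no fold is given, and a difference was not detectable at this depth. Receptor RNA in these cells was at most 0.353 TPM for Ednra and 0.0155 TPM for Ednrb in any library.

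Of the 5 members other than Edn1, 2 were tested and 0 were called by edgeR, while 9.08% of all 12775 tested genes were called, 3.48% higher and 5.60% lower. Both tested members, Ece1 and Ednra, had an unadjusted p below 0.05, as did 32.5% of all tested genes, and DESeq2 called 1 and limma-voom 0. For Ece1 the groups did not overlap, with knockout below parental, as for 19.0% of all tested genes. Ednra was tested only because of its parental reads, so its p and its separate groups are descriptions. The groups lay apart with knockout above parental for 17.2% of them, Edn1 included.

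**Figure D2:**
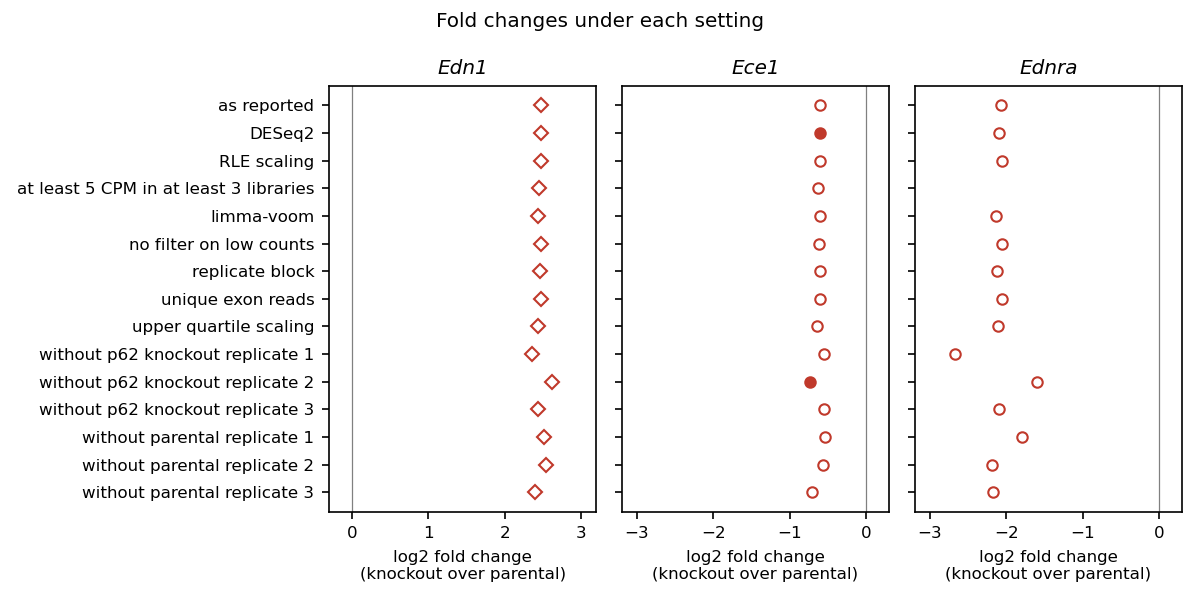
Log2 fold change, knockout over parental (x axis), of Edn1, Ece1 and Ednra under each setting (rows); filled points have an adjusted p below 0.05, and Edn1 is drawn as open diamonds because it was given no test. Edn1 stays between 2.35 and 2.62, Ece1 is filled with DESeq2 and without knockout replicate 2 at -0.61 and -0.74, and Ednra has no point under the filter of 5 CPM, which it did not pass.

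On the TPM scale Ece1 and Edn1 were closest in knockout cells. Edn1 stood at 17.5, 10.8 and 14.8 TPM in knockout libraries, against 2.90, 3.03 and 2.20 TPM in parental libraries. Ece1 stood at 23.7, 27.7 and 22.0 TPM in knockout libraries, against 44.1, 42.8 and 31.6 TPM in parental libraries. Ece1 exceeded Edn1 in every library, by 1.35-fold, 2.57-fold and 1.49-fold in knockout libraries, against 15.2-fold, 14.1-fold and 14.4-fold in parental libraries. The mean ratio was 1.80 ± 0.668 in knockout and 14.6 ± 0.569 in parental cells (SD, n = 3 each), a description that contains the Edn1 values used to choose the gene. Edn1 had a higher TPM than 68.8% to 73.2% of all listed genes in knockout libraries and than 58.1% to 58.8% in parental libraries. Below Ece1 and Edn1, the TPM ranges of Edn2 and Ednra overlapped in both groups, and those of Ece2 overlapped with Ednra in knockout and with Edn2 in parental libraries.

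**Figure D3:**
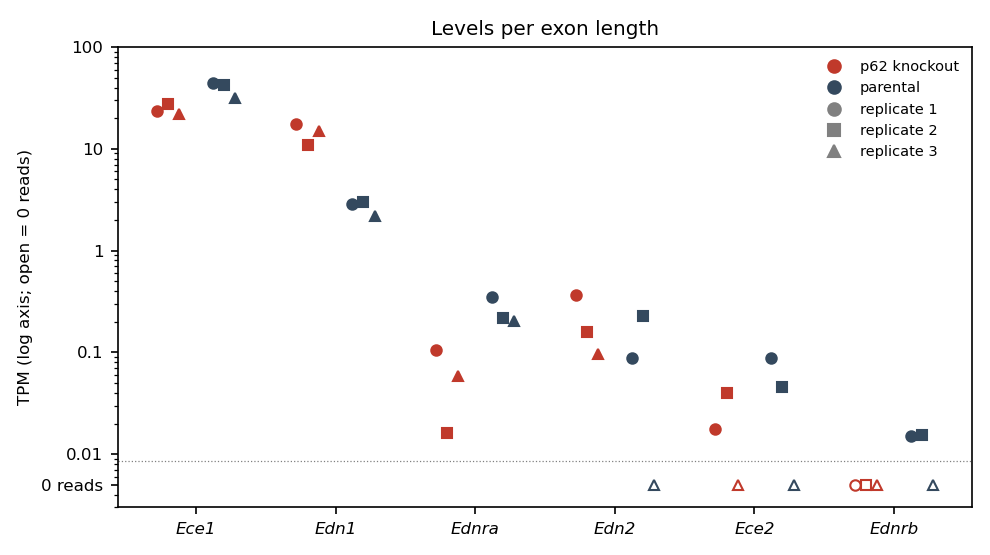
TPM (y axis, log scale, open symbols at the bottom for 0 reads) of the 6 genes in each library, knockout left of parental. Ece1 and Edn1 are the only members above 1 TPM, and they are 1.35-fold to 2.57-fold apart in knockout and 14.1-fold to 15.2-fold apart in parental libraries.

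Calls in this and the next 3 gene lists were lost when knockout replicate 1 or 3 or parental replicate 2 was left out. Of 15 genes that process or degrade endothelins, 8 were tested. None passed as higher, 1 passed as lower and 7 did not pass (edgeR), with a median log2 fold change of -0.15 against 0.02 over all tested genes. The share called was 12.5%, against 9.08% of all tested genes. Before adjustment 2 were higher and 1 lower at p below 0.05, or 37.5% against 32.5% of all tested genes. DESeq2 called 1 higher and 1 lower, or 25% against 22.6%, and limma-voom called 0 higher and 1 lower. The lower gene was Ecel1, which encodes a membrane protease related to the converting enzymes. Ecel1 fell to 0.825, 1.49 and 0.594 CPM in knockout libraries, against 4.01, 2.67 and 4.09 CPM in parental libraries. The log2 fold change of Ecel1 was -1.87 ± 0.40 (SE), at an edgeR adjusted p of 0.0377. Furin, a convertase that can make big endothelin, stood at 140 ± 33.9 CPM in knockout and 171 ± 1.51 CPM in parental cells (SD, n = 3 each; edgeR adjusted p = 0.293). Mme, neprilysin, which degrades endothelins, stood at 0.978, 0.539 and 1.16 CPM in knockout libraries, against 0.173, 0.403 and 0.366 CPM in parental libraries (edgeR adjusted p = 0.0853). Mme is among the 2 genes that were higher before adjustment. The parental libraries alone, with 35 reads in all and 0.173 CPM in replicate 1, would not have passed the filter on low counts. Mme passed that filter only through its knockout libraries. Its direction and adjusted p are therefore descriptions. Furin and Mme lie outside the rule for named genes and were picked for their role after their values were seen.

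Signalling genes downstream of the receptors mostly did not pass. Of 40, 37 were tested, with 0 higher, 2 lower and 35 not passing (edgeR) and a median log2 fold change of -0.15. The share called was 5.41%, against 9.08% of all tested genes. Before adjustment 3 were higher and 8 lower at p below 0.05, or 29.7% against 32.5% of all tested genes. DESeq2 called 1 higher and 7 lower, which was 21.6% against 22.6% of all tested genes, and limma-voom called 0. Rgs5, which speeds the shut-off of G proteins and is also in the list of fibroblast and smooth muscle markers, fell to 1.25, 1.10 and 0.890 CPM in knockout libraries, against 2.87, 4.46 and 2.17 CPM in parental libraries (log2 fold change -1.55 ± 0.35, SE; edgeR adjusted p = 0.0417). Trpc1, a cation channel subunit, fell to 9.12 ± 0.826 CPM in knockout cells, against 15.4 ± 2.36 CPM in parental cells (SD, n = 3 each; edgeR adjusted p = 0.04998). With limma-voom neither call held, at adjusted p of 0.0513 for Rgs5 and 0.0562 for Trpc1. Trpc1 also lost its call with RLE scaling (edgeR adjusted p = 0.0513). The G protein subunits that couple the receptors to phospholipase C did not pass, with Gnaq at 88.3 ± 14.5 and 84.3 ± 12.2 CPM and Gna11 at 111 ± 4.34 and 109 ± 0.611 CPM in knockout and parental cells (SD, n = 3 each; edgeR adjusted p = 0.810 and 0.839).

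Among 32 transcription factors and cofactors known to act on the Edn1 gene in mammalian cells, all tested, 1 passed as higher, 5 passed as lower and 26 did not pass (edgeR), and the median log2 fold change was -0.11. The share called was 18.8%, against 9.08% of all tested genes, and the share called lower 15.6%, against 5.60%. Before adjustment 3 were higher and 13 lower at p below 0.05, or 50% against 32.5% of all tested genes. DESeq2 called 3 higher and 7 lower, or 31.2% against 22.6%, and limma-voom called 1 higher and 5 lower. Nfkb1, an NF-kB subunit, rose to 123, 98.6 and 120 CPM in knockout libraries, against 80.4, 74.7 and 69.0 CPM in parental libraries (log2 fold change 0.61 ± 0.14, SE; edgeR adjusted p = 0.0419). The genes called lower by edgeR were Gata3, Junb, Fos, Gata6 and Foxo1. Of these, Junb and Fos encode AP-1 subunits and Gata3 and Gata6 GATA factors.

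Gata3 fell to 2.02, 3.60 and 1.60 CPM in knockout libraries, against 7.11, 7.53 and 5.77 CPM in parental libraries (edgeR adjusted p = 0.0418). Junb fell to 217, 249 and 226 CPM in knockout cells, against 335, 469 and 622 CPM in parental cells (edgeR adjusted p = 0.0395). Fos fell to 10.0, 13.8 and 9.47 CPM in knockout cells, against 24.0, 24.8 and 17.7 CPM in parental cells (edgeR adjusted p = 0.0400). The log2 fold changes of Gata3, Junb and Fos were -1.49 ± 0.34, -1.04 ± 0.23 and -1.0 ± 0.22 (SE). No knockout library reached the parental range for these 3 genes, as for 19.0% of all tested genes. They were named because they were called lower, which makes separate groups likely. Gata6 and Foxo1, named because the count is small, fell 1.86-fold and 1.67-fold (edgeR adjusted p = 0.0386 and 0.0323).

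Among factors whose motifs were searched in the Edn1 promoter, Gata2, Jun, Smad3, Hif1a and Arnt had negative log2 fold changes and did not pass. Of the same families, Fosl1, Fosl2, Gata4 and Smad4 had negative log2 fold changes of -1.02, -0.55, -0.12 and -0.06 and did not pass. Jund, Smad2 and Epas1, which belong to the same families, had positive log2 fold changes of 0.37, 0.09 and 0.85 and did not pass either (edgeR). Gata2, which is known to drive Edn1 in endothelial cells, averaged 1.37 ± 0.165 CPM in knockout and 2.45 ± 0.442 CPM in parental cells (SD, n = 3 each; edgeR adjusted p = 0.0874). Jun averaged 41.3 ± 1.30 and 65.9 ± 22.6 CPM (edgeR adjusted p = 0.118), and Smad3 182 ± 31.5 and 254 ± 15.5 CPM (edgeR adjusted p = 0.0840), in knockout and parental cells. Hif1a averaged 175 ± 25.2 and 188 ± 12 CPM (edgeR adjusted p = 0.633), and its partner Arnt 38.8 ± 5.88 and 71.3 ± 20.8 CPM (edgeR adjusted p = 0.0639), in knockout and parental cells. These genes were picked from the list after their values were seen. Without knockout replicate 2, 4 factors of the list were called higher and 13 lower, in a fit that called 46.2% of all tested genes. Which of the genes named here were among them is not given.

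Other vasoactive peptide systems were examined beside the endothelins. Of 40 genes, 20 were tested, with 0 higher, 2 lower and 18 not passing (edgeR) and a median log2 fold change of -0.54. The share called was 10%, against 9.08% of all tested genes. Before adjustment 2 were higher and 3 lower at p below 0.05, or 25% against 32.5% of all tested genes. DESeq2 called 1 higher and 3 lower, or 20% against 22.6%, and limma-voom called 0 higher and 2 lower. Npr3, the clearance receptor of natriuretic peptides, fell to 20.3, 18.9 and 19.5 CPM in knockout libraries, against 46.5, 40.8 and 63.1 CPM in parental libraries (log2 fold change -1.35 ± 0.19, SE; edgeR adjusted p = 0.0152). Nppc, C-type natriuretic peptide, fell to 0.127 ± 0.0582 CPM in knockout cells, against 0.884 ± 0.120 CPM in parental cells (log2 fold change -2.74 ± 0.44, SE; edgeR adjusted p = 0.0224), but it passed the filter on low counts only through its parental libraries, so its direction was fixed by the filter. Of the 2 lower genes, Npr3 alone passed that filter in both groups. Apln, the peptide ligand apelin, was the tested gene of this list with the largest positive log2 fold change, 1.63 ± 0.45 (SE), and did not pass (edgeR adjusted p = 0.0640). It stood at 62.8, 31.7 and 57.5 CPM in knockout libraries, against 23.8, 17.9 and 7.33 CPM in parental libraries, and was picked after its values were seen.

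The calls in these 4 lists depended on single libraries. Without knockout replicate 1 or 3, or without parental replicate 2, 0 of 98 tested genes of the 4 lists were called (edgeR), with 20, 23 and 22 at an unadjusted p below 0.05. These were 20.4%, 23.5% and 22.4% of the list genes, against 19.9%, 19.8% and 19.3% of all tested genes. Without parental replicate 1, Junb and Npr3 were called (edgeR adjusted p = 0.0393 and 0.0430), and without parental replicate 3 Npr3 alone (edgeR adjusted p = 0.0431). Without knockout replicate 2, 2 processing genes were higher and 2 lower, 4 signalling genes were higher and 13 lower, 4 transcription factors were higher and 13 lower, and 3 other vasoactive genes were higher and 6 lower. Together these were 48.5% of the 97 tested list genes, against 46.2% of all tested genes in the same fit.

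**Figure D4:**
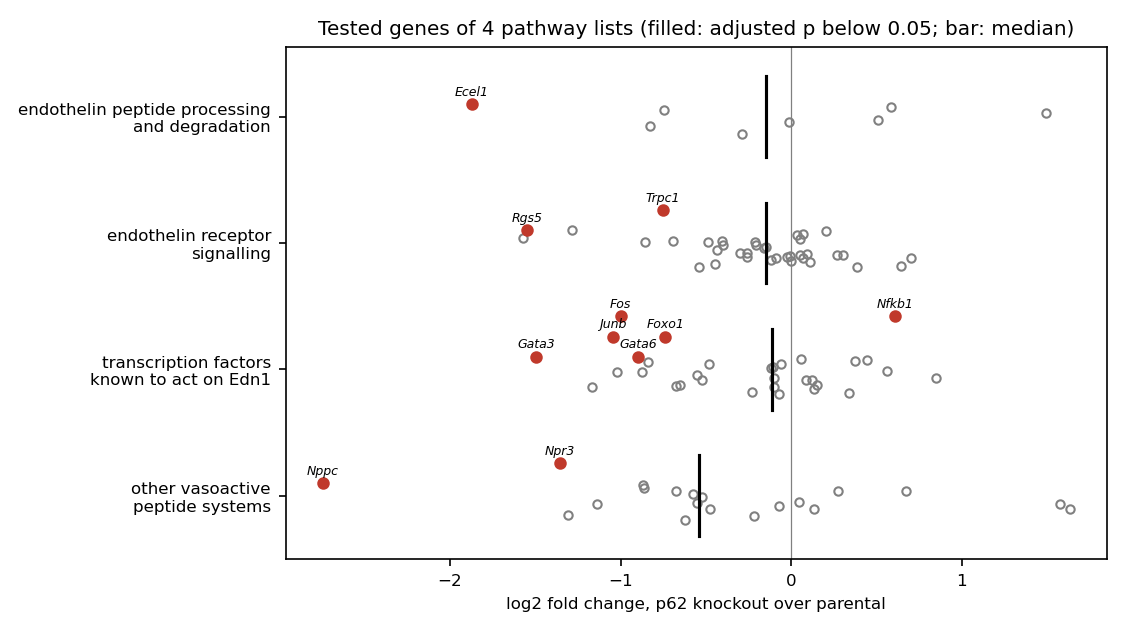
Log2 fold change, knockout over parental (x axis), of every tested gene in 4 lists (rows), with vertical position spread for visibility, a bar at the list's median and filled, named points for genes with an edgeR adjusted p below 0.05. Nfkb1 is the filled point above 0, and the other 10 lie below it.

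The genes whose log2 CPM followed Edn1 most closely over the 6 libraries were sought among 10081 others with a mean of at least 5 CPM. They were Pygo2, a Wnt pathway chromatin reader (Pearson r = 0.999), the histone gene H2bc4 (0.997), Ddb1, a DNA damage-binding and ubiquitin ligase adaptor (0.997), Smc3, a cohesin subunit (0.996), and Ift74, of intraflagellar transport (0.995). These values are descriptions over 6 libraries in 2 separate groups, so any gene that differs evenly between the groups scores high. The sizes differed from that of Edn1, with log2 fold changes of 0.22 for Pygo2, 1.63 for H2bc4, 0.35 for Ddb1, 0.56 for Smc3 and 1.25 for Ift74, against 2.48 for Edn1. H2bc4 stood at 18.3, 12.3 and 16.5 CPM in knockout libraries, against 5.20, 5.11 and 4.88 CPM in parental libraries. Knockout replicate 2 was the lowest of the knockout libraries for all 5 genes, as for Edn1, which follows largely from choosing them by this correlation.

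Markers of endothelial cells, fibroblasts and leukocytes had low sums, and these sums were lower in each knockout library than in any parental library. The 12 endothelial markers summed to 8.77 to 16.3 CPM in knockout and 18.0 to 19.6 CPM in parental libraries, mostly Flt1, and Emcn had 0 reads. The 12 fibroblast and smooth muscle markers summed to 6.42 to 6.62 CPM in knockout and 16.8 to 20.3 CPM in parental libraries, led by Pdgfra and Rgs5, and Lum had 0 reads. The 12 leukocyte markers summed to 5.37 to 7.42 CPM in knockout and 20.7 to 23.5 CPM in parental libraries, led by Cd68, with Cd3e, Nkg7 and Tyrobp at 0 reads. The 10 melanocyte and Schwann markers summed to 1.77 to 2.57 CPM in knockout and 2.14 to 2.95 CPM in parental libraries, which overlapped, with Sox10, Mlana and Tyrp1 at 0 reads. Endothelial cells are a known source of Edn1. Of their 12 markers, 3 were tested and 0 were called (edgeR). Flt1 stood at 9.66, 4.85 and 10.4 CPM in knockout libraries, against 10.4 to 14.2 CPM in parental libraries (edgeR adjusted p = 0.285). Between the groups the endothelial sum was lower where Edn1 was higher, but among knockout libraries replicate 2 was lowest for both Flt1 and Edn1. Whether endothelial cells had a part in the Edn1 difference was not tested. The part of the markers of all these cell types in the results above was not tested either.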

How the data were processed

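Poly(A) RNA of 3 p62 knockout and 3 parental MOC2 cultures was sequenced as directional paired-end libraries, per the labels' protocols. The authors deposited whole-number counts of total and unique exon reads per gene and TPM, per the file headers. The TPM equal total exon reads over exon length, scaled to 1000000 per library. The submitters' processing notes name GRCm39 as the build; promoter sequences come from RefSeq on GRCm38.p6. Which aligner and counter were used, and whether strand was considered, is not given in the sources used here, so reads of overlapping genes could not be told apart.

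Total exon reads were tested with edgeR 4.0.16 (R 4.3.3) quasi-likelihood, with filterByExpr, TMM scaling, a model of group alone and p-values adjusted by Benjamini-Hochberg over 12775 genes. Calls are at an adjusted p below 0.05. SE were taken from the F statistic. Alternatives used RLE and upper quartile scaling, other filters, DESeq2 1.42.0, limma-voom 3.58.1, unique reads, a replicate block and leaving out each library. The test was also run on simulated data, but the outcome is not given here and no call rests on it. Libraries of a group differed by 7.77 to 317 times sampling noise (chi-square per degree of freedom), so none was treated as a repeat of another. The value was 7.77 for knockout replicates 1 and 3. It was 317 and 314 for knockout replicate 2 against replicates 1 and 3, and 40.8 to 98.4 for parental pairs. Whether the cultures were independent was not tested.

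Members and lists were chosen with earlier results of these data known. Named genes were the 6 members, Sqstm1, up to 3 called genes per list and direction with the largest fold change, and the 5 genes most correlated with Edn1. Correlations used log2 CPM with a prior count of 2.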

Additional observations from a re-analysis of the deposited data

How the results depend on the processing

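The log2 fold change of Edn1 lay between 2.35 and 2.62 in all 14 alternatives. Ece1 kept its sign in all 14 (-0.74 to -0.54) and passed with DESeq2 at -0.61 and without knockout replicate 2 at -0.74. Ednra kept its sign and did not pass in the 13 alternatives that tested it (-2.67 to -1.60); it could not be tested under the filter of 5 CPM in 3 libraries. Over all genes, 445 were called higher and 715 lower. DESeq2 called 1479 and 1402, and leaving out single libraries gave 0 to 2972 and 0 to 3001. Without parental replicate 2, edgeR called 0 genes, and 2494 had an unadjusted p below 0.05; without knockout replicate 2 it called 2972 and 3001.

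Whether replicate numbers pair the libraries could not be decided, because the 3 deviations from a group mean are not independent of each other. Deviations of same-numbered libraries correlated at -0.366, -0.105 and 0.284. Knockout replicates 1 and 2 correlated best with another number, and knockout replicate 3 with its own. With a replicate block the counts were 54 higher and 203 lower. The block left 0 processing genes, 0 signalling genes and 0 transcription factors called, and 1 other vasoactive gene, Npr3, lower.

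For the lists, DESeq2 called 1 processing gene, 1 signalling gene, 3 transcription factors and 1 other vasoactive gene higher. It called 1 processing gene, 7 signalling genes, 7 transcription factors and 3 other vasoactive genes lower. In list order these calls were 25%, 21.6%, 31.2% and 20% of the tested genes, against 22.6% of all tested genes. The filter of 5 CPM left 0 processing, 1 signalling and 1 other vasoactive gene lower. Signalling genes called lower numbered 0 with limma-voom and 1 with RLE scaling, no filter or unique reads, and RLE scaling and unique reads each called 1 signalling gene higher. Leaving out single libraries gave 0 to 2 processing genes higher and 0 to 2 lower, 0 to 4 signalling genes higher and 0 to 13 lower, 0 to 4 transcription factors higher and 0 to 13 lower, and 0 to 3 other vasoactive genes higher and 0 to 6 lower. Depth limits Edn2, Ece2 and Ednrb, which had at most 7 reads in a library.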

Other observations

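Of 13 tested markers of other cell types, 3 were called (23.1%, against 9.08% of all tested genes called and 5.60% called lower), Rgs5 (given with the signalling genes), Cd68 and Pdgfra, and all 3 were lower in the knockout. Cd68, a lysosomal membrane glycoprotein abundant in macrophages, fell to 3.64, 4.17 and 2.64 CPM in knockout libraries, against 18.6, 18.6 and 22.2 CPM in parental libraries (log2 fold change -2.50 ± 0.23, SE; edgeR adjusted p = 0.00654). Pdgfra, a receptor for platelet-derived growth factors, fell to 3.15, 3.73 and 3.86 CPM in knockout libraries, against 13.5, 11.3 and 10.6 CPM in parental libraries (log2 fold change -1.72 ± 0.20, SE; edgeR adjusted p = 0.00934). Both genes were picked after their values were seen.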
